A study of Mus musculus with 6 samples.

Results

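Among single cells of mouse fetal gonads, a group of testis interstitial cells was taken that did not cycle. They carried UMIs (unique molecular identifiers, each standing for 1 captured mRNA molecule) of Inhba, Sostdc1 or Pdlim3. Members were cells of the XY libraries with at least 10 UMIs of Inhba, Sostdc1 and Pdlim3 together, at least 3 UMIs of Tcf21 and Pdgfra, fewer than 4 of Top2a and Mki67, fewer than 5 of Lum, Gdf10 and Il33, and less than 0.4% of their UMIs from Cyp17a1 and Cyp11a1. They numbered 6624 of the 29239 cells of the XY libraries, or 22.7%, and of the 39350 cells of the study that passed its filter. The measured levels of these 12 genes chose the cells, so the levels and the share of members are given as a description, with no test.

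Gonads were taken at embryonic day E15.5 from mice of C57BL/6 background, and each of the 3 groups had 2 libraries. Control XY embryos were wild type at both loci (Amh+/+; Inhbb+/+), dKO XY embryos lacked both genes in every cell (Amh-/-; Inhbb-/-), and control XX embryos were wild type. Both gonads of an animal were pooled, dissociated, frozen until the genotype was known and thawed before capture with 10x Genomics chemistry. No agent was given to any group.

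The interstitium of the fetal testis lies between the cords that hold Sertoli and germ cells, and it holds fetal Leydig cells, vessels, immune cells and mesenchymal cells, some of which are precursors of Leydig cells. Amh encodes anti-Müllerian hormone and Inhbb the subunit of activin B, both TGF-beta family ligands of Sertoli cells. AMH acts through the receptor AMHR2, and activins act through activin receptors and the transcription factors SMAD2 and SMAD3.

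Of the 5 genes that mark the group, Inhba encodes the inhibin beta A subunit, of which activin A is built, and Sostdc1 a secreted antagonist of BMP and WNT signals. Pdlim3 encodes a PDZ and LIM domain protein of actin filaments, Cxcl12 a chemokine, and Col25a1 a transmembrane collagen. The first 3 are genes of the rule. On GRCm38 (GENCODE M21), Inhba lies on the plus strand of chromosome 13 from 16011851 to 16031621, Sostdc1 on chromosome 12 from 36314139 to 36318452 and Pdlim3 on chromosome 8 from 45885461 to 45919548. Cxcl12 lies on chromosome 6 from 117168535 to 117181367 and Col25a1 on chromosome 3 from 130131501 to 130599877. The 250 bases before the RefSeq start of 4 of these genes, all on the plus strand of GRCm38.p6, are shown because their mRNA levels were lower together in dKO XY members. Sostdc1 was lower as well, but the RefSeq promoters used held no entry for it. Inhba and Pdlim3 are rule genes, whose levels chose the cells. The RefSeq starts of Pdlim3 and Col25a1 lie inside the GENCODE genes, so that their windows overlap these genes. Capitals mark any of 5 motifs searched on both strands.
Inhba, chr13:16011601-16011850: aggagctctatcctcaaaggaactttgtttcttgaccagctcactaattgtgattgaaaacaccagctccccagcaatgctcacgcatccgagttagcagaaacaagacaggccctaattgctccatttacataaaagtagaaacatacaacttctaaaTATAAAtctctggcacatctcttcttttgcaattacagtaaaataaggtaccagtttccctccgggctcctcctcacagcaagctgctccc
Pdlim3, chr8:45885237-45885486: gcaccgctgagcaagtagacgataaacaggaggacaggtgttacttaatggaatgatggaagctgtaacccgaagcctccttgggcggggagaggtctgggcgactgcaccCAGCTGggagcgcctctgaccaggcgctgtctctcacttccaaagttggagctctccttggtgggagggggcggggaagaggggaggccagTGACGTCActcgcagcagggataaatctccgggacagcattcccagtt
Cxcl12, chr6:117168285-117168534: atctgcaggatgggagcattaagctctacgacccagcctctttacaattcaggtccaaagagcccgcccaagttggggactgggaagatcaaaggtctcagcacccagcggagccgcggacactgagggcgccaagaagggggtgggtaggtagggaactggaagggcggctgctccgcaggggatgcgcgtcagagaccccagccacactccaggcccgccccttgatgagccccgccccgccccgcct
Col25a1, chr3:130180595-130180844: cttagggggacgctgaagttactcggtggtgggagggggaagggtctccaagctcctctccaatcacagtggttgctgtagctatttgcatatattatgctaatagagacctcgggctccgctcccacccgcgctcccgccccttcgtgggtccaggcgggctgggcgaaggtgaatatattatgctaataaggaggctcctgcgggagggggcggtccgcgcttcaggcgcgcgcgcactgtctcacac
The Inhba window held the TATA motif TATAAA, which 12.4% of the 32851 RefSeq windows of this length held. The Pdlim3 window held the cAMP response element TGACGTCA, found in 1.55% of windows, and the E-box CAGCTG, found in 13.0%. No window of the 4 held the nuclear receptor half-site AGGTCA, present in 14.02% of windows, or the GATA motif AGATAA, present in 9.99%. The Cxcl12 and Col25a1 windows held none of the 5 motifs. These matches say only which letters are present.

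Members were fewer in dKO XY. Control XY replicates 1 and 2 gave 2511 and 2745 members, which were 36.8% (95% exact binomial interval 35.7% to 38.0%) and 32.0% (31.0% to 33.0%) of their cells. The dKO XY replicates gave 965 and 403 members, which were 11.8% (11.1% to 12.6%) and 7.07% (6.42% to 7.77%). The group means were 34.4 ± 3.39% in control XY and 9.45 ± 3.37% in dKO XY (SD, n = 2), and the intervals cover counting error only. Among cells with the same Tcf21 and Pdgfra limit and the same Leydig limit, members were 46.0% and 42.2% in control XY and 18.9% and 12.02% in dKO XY. Cells that met every other limit but had fewer than 10 UMIs of Inhba, Sostdc1 and Pdlim3 numbered 633 and 988 in control XY and 1610 and 914 in dKO XY. Members were thus 79.9% and 73.5% of these noncycling cells in control XY and 37.5% and 30.6% in dKO XY. Because the threshold counts UMIs of genes whose level in members was also lower in dKO XY, fewer cells of the kind and less mRNA of these genes per cell cannot be told apart. Cells past the first threshold that cycled (at least 4 UMIs of Top2a and Mki67) numbered 1144 and 1434 in control XY and 739 and 701 in dKO XY. They were 31.3% and 34.3% of members and cycling cells together in control XY, and 43.4% and 63.5% in dKO XY. The median depth of cycling cells was 27663.5 and 24389.5 UMIs in control XY and 28242 and 39890 in dKO XY. Both limits count UMIs per cell, and the part of depth and of the level of the rule genes in this share was not tested.

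**Figure D1:**
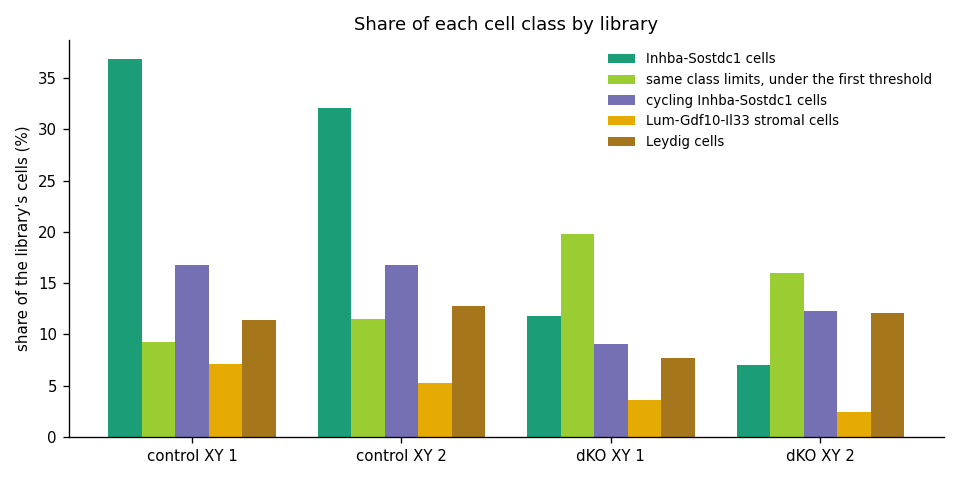
Bars give the share of the cells of each XY library, in percent, that fell into 5 cell classes, with 1 group of bars per library. Inhba-Sostdc1 cells were 36.8% and 32.0% in control XY and 11.8% and 7.07% in dKO XY, while noncycling cells under the first threshold made a taller bar than members in dKO XY only.

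Members were deeper in dKO XY. Their median was 16846 and 14995 UMIs in control XY and 18008 and 19605 in dKO XY. With the thresholds set per 20000 UMIs of a cell, members were 40.3% and 35.9% of the cells in control XY and 13.3% and 8.33% in dKO XY. Mitochondrial UMIs of members were 4.07% and 4.81% against 3.53% and 4.64%. Barcodes at or over the mitochondrial limit of 25%, which were left out, were 4.50% and 7.65% of the deposited barcodes in control XY and 24.4% and 28.3% in dKO XY, and the part of this in the share of members was not tested. The median sum of Inhba, Sostdc1 and Pdlim3 was 24 and 21 UMIs in control XY and 18 and 17 in dKO XY. Of the 39174 distinct barcodes among cells, 175 occurred in more than 1 library, and 2 of these were members in more than 1 library. Among the XY libraries, dKO XY replicate 2 stood apart in immediate early genes such as Fos, at 649 CPM (counts per 1000000 UMIs of the members of a library) against 2786 to 3534 in the others, and Jun, at 681 against 1995 to 2677. Hsp90aa1, a heat shock gene, was not low in it, at 563 CPM against 408 to 513. The summed level of 14 stress and dissociation genes in its members was 3410 CPM, against 10543 in dKO XY replicate 1 and 11307 and 10928 in control XY.

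The label of an interstitial cell was checked with genes outside the rule. To compare cells of unequal depth, members were thinned to 10000 UMIs each, which left out 71 and 205 control XY and 35 and 8 dKO XY members with fewer. Nr2f2, a nuclear receptor of interstitial and venous endothelial cells, was found in 99.8% and 99.8% of thinned control XY members and in 98.6% and 100% of dKO XY members, and in 60.7% to 83.6% of endothelial cells. Dcn, the proteoglycan decorin of mesenchymal cells, was found in 97.6% and 97.2% (control XY) and in 92.5% and 87.1% (dKO XY). In endothelial cells of the same libraries, 7.79% and 10.0% (control XY) and 11.5% and 13.9% (dKO XY) of thinned cells held Dcn. Insl3, the Leydig hormone, was found in 5.20% and 4.84% of thinned control XY members and in 3.98% and 3.80% of dKO XY members. In endothelial cells it was found in 1.30% and 4.55% (control XY) and in 1.44% and 6.56% (dKO XY). These endothelial shares rest on few thinned cells, 77 and 110 in control XY and 208 and 122 in dKO XY. Members lay above endothelial cells in every XY library but dKO XY replicate 2, by little in control XY replicate 2. Neither this order nor the part of free RNA was tested. The endothelial cells were deeper before thinning, with medians of 22916 and 33627 UMIs in control XY and 31622 and 42807 in dKO XY. Col25a1, a marker of the group outside the rule, was found in 63.6% and 61.6% of thinned control XY members and in 32.9% and 39.0% of dKO XY members, against 0.820% to 7.79% of endothelial cells. Nr2f2 was thus present in nearly all members, while Dcn and Col25a1 were found in fewer members of dKO XY than of control XY.

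The rule genes were not all present in each cell. Unthinned, Inhba was found in 98.2% and 97.7% of control XY members and in 94.2% and 97.0% of dKO XY members. All of Inhba, Sostdc1 and Pdlim3 were found in 71.5% and 68.8% of control XY members and in 54.8% and 46.7% of dKO XY members. The Inhba level was 605 and 591 CPM in control XY members, against 357 and 379 in dKO XY members. Sostdc1 had 461 and 434 CPM in control XY against 347 and 325 in dKO XY. Pdlim3 was at 455 and 467 CPM against 330 and 190, the lower value in dKO XY replicate 2. Each of the 3 was lower in both dKO XY libraries than in both control XY libraries. Members were deeper in dKO XY, and a fixed sum of UMIs lets in a deeper cell at a lower CPM. The part of depth in these levels was not tested. Just under the threshold, cells with 7 to 9 UMIs had 307 and 351 CPM of Inhba in control XY and 248 and 278 in dKO XY. Just past it, cells with 10 to 12 UMIs had 394 and 434 CPM in control XY and 280 and 325 in dKO XY. The median depth just under the threshold was 14631 and 13309 UMIs in control XY and 17422 and 16882 in dKO XY. Just past it, the median was 15278 and 13732 against 17279 and 17513 UMIs. At a fixed sum of UMIs a deeper cell has a lower CPM, so these Inhba levels do not measure a difference between genotypes. Of the markers that the rule did not use, Cxcl12 was at 1248 and 1157 CPM outside and 1346 and 1225 inside in control XY, and at 576 and 667 outside and 585 and 674 inside in dKO XY. Col25a1 was at 99.2 and 123 CPM outside and 126 and 131 inside in control XY, and at 40.2 and 39.3 outside and 44.2 and 51.3 inside in dKO XY.

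Across classes of the same libraries, the 5 marker genes were lower in Leydig and endothelial cells than in members. In Leydig cells (Cyp17a1 and Cyp11a1 at 0.4% or more), the Inhba level was 126 and 147 CPM for control XY and 84.9 and 122 for dKO XY. In endothelial cells it was at 1.57 to 3.15 CPM. Stromal cells, defined by at least 5 UMIs of Lum, Gdf10 and Il33 and with no limit on Inhba, had 303 and 288 CPM of Inhba in control XY and 78.6 and 96.9 in dKO XY. Their Pdlim3 level was 509 and 520 CPM in control XY, above that of members, and 124 and 142 CPM in dKO XY. Col25a1 had 149 and 149 CPM in control XY members and 51.4 and 62.3 in dKO XY members, against 72.0 and 81.9 and 17.5 and 15.9 in stromal cells.

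**Figure D2:**
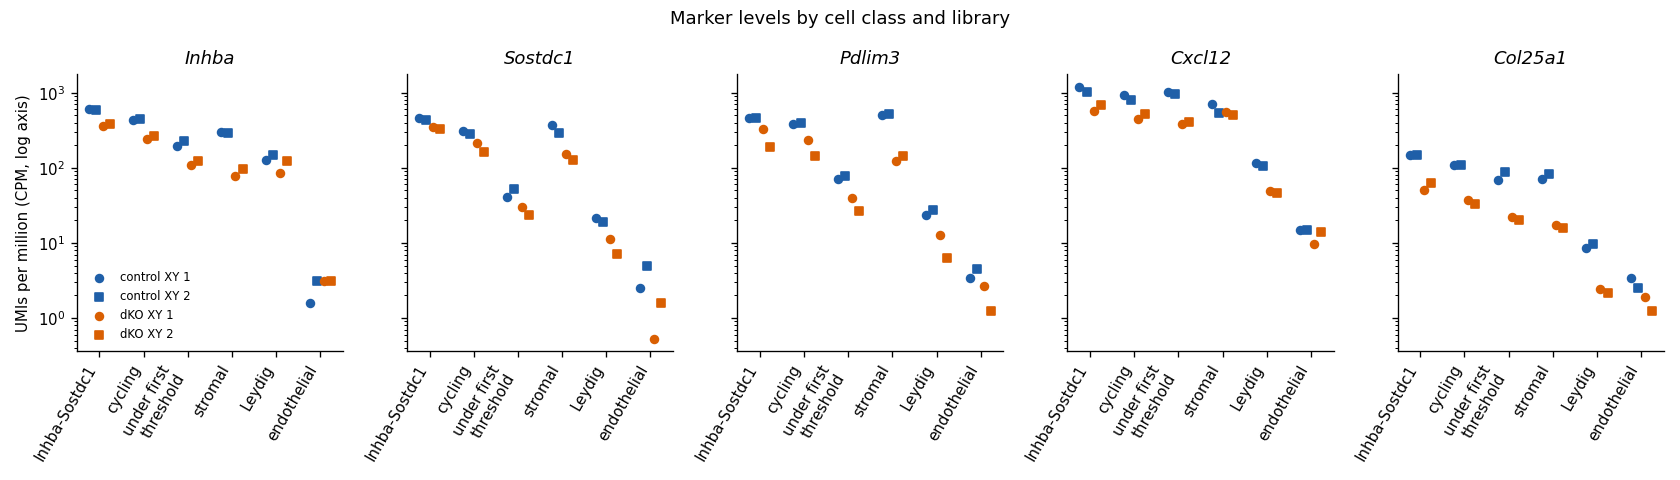
Points give the level of 5 marker genes in CPM, on a log axis, in 6 cell classes of the 4 XY libraries, with blue for control XY, orange for dKO XY, circles for replicate 1 and squares for replicate 2. Levels in members were 149 CPM of Col25a1 in both control XY libraries, and endothelial cells had the lowest level of each of the 5 genes in every library.

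Other genes that stood out in members were ranked by the lowest fold, among the 4 libraries, of members over all other cells of the library, among genes with at least 50 CPM in members. Adamts5, an aggrecanase, led with 141 to 207 CPM in members and 2.68 to 4.15 times the level of other cells. Itih5, which encodes a hyaluronan-binding protein, had 187 to 325 CPM and 2.29 to 3.04 times. Nrg1, a ligand of ERBB receptors, had 99.9 to 142 CPM and 2.28 to 2.36 times. Pdyn, the precursor of dynorphin peptides, had 70.9 to 96.8 CPM and 2.15 to 3.11 times. Twist1, a mesenchymal transcription factor, had 163 to 267 CPM and 2.10 to 2.86 times. Hsd11b2, which inactivates glucocorticoids, had 197 to 276 CPM and 2.02 to 2.70 times. The other cells included cycling cells past the first threshold and cells just under it. These genes describe the cells that the rule took, and no test was made.

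Variation from cell to cell was ranked, among genes outside the rule, by the lowest of the 4 libraries in the variance over the mean of thinned cells. Malat1, a nuclear RNA, led with 40.6 to 48.5 times, at a mean of 163 to 213 UMIs per thinned cell. The ratio tends to grow with the mean, so the rank also reflects the level of a gene. Lyz2, a macrophage gene, followed with 24.4 to 166 times, so that it lay above Malat1 in its highest library. Cd52, Fcer1g and Tyrobp, also of macrophages, had 8.50 to 20.4 times, and these 4 genes rested on few cells. Members with at least 5 UMIs of these 4 genes numbered 10 and 9 in control XY and 4 and 1 in dKO XY. Acta2, smooth muscle actin, had a variance of 9.46 to 18.9 times its mean. Cells with at least 20 Acta2 UMIs of 10000 were 4.10% and 3.94% of control XY members and 14.8% and 3.80% of dKO XY members, so that dKO XY replicate 1 stood apart and the groups overlapped. In control XY, these cells had 1259 and 1096 CPM of Tagln and 202 and 209 CPM of Myh11, both smooth muscle genes, against 103 and 85.5 and 17.8 and 22.8 CPM in the other members. They had less Cxcl12, at 373 and 329 CPM against 1298 and 1125, and less Inhba, at 255 and 282 against 637 and 623. The rule gene Pdlim3 was higher in them, at 1027 and 781 CPM against 420.4 and 447, and Sostdc1 was mixed, at 383 and 505 against 488 and 446. Cspg4, a pericyte gene, was at 27.0 and 40.0 CPM against 29.7 and 32.0. Of other pericyte genes, Rgs5 was at 1.0 and 18.0 CPM against 3.21 and 4.43, and Mcam at 2.0 and 13.0 against 2.91 and 4.63. Both were thus higher in the high cells of control XY replicate 2 only. In dKO XY the high cells likewise had less Cxcl12, at 415 and 360.0 CPM against 661 and 731 in other members, and more Pdlim3, at 612 and 573 against 277 and 173. Acta2 chose these cells, so these values carry no test.

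To compare the genotypes in members, UMIs were summed over the members of each library. The 4 sums were compared with edgeR's quasi-likelihood test, with genotype as the only factor. The rule took a smaller part of the noncycling cells in dKO XY (above). A change in which cells were taken and a change inside cells thus cannot be told apart here. Of 14921 genes tested outside the rule, 442 were higher and 280 lower in dKO XY at an adjusted p under 0.05, which is 2.96% and 1.88% and together 4.84%. The median log2 change over these genes was -0.0037. A fall of at least 1 on the log2 scale was seen in 125 called genes and a rise of at least 1 in 253. Leaving out 1 library gave from 198 calls (control XY replicate 1 left out) to 1994 (dKO XY replicate 2 left out), and 163 of the 722 genes were called with each library left out in turn. Without the threshold on Inhba, Sostdc1 and Pdlim3, an alternative added after seeing the data, 1635 genes were called, and 666 of the 722 were among them. The p-values set the difference between genotypes against the spread between libraries, with 2 libraries per genotype and a spread estimated in part across genes. Differences between animals and between captures are both in that spread. A call given below as lost is one lost with 1 library left out, unless another setting is named. Losses with other settings are not all named. Of the 95 named effects, some were not called and had no call to lose. All 660 calls of the difference between classes, given below, were kept with no filter on low counts. Among effects called in the main test, 32, all in members, lost their call with no filter on low counts and 4 with DESeq2. In members, 9 lost it with a first threshold of 15 UMIs and 9 without the cells of highest doublet score. Thinning lost 7 and thresholds per 20000 UMIs lost 6.

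The knocked-out genes were read first. Over all cells of a library, Amh had 102 and 174 CPM in control XY against 9.02 and 11.2 in dKO XY, and Inhbb at 19.3 and 31.3 against 11.7 and 17.8 CPM. Inhbb RNA was thus still counted in dKO XY. In members, which are not the source of AMH, Amh had 23.4 and 50.2 CPM in control XY against 7.47 and 7.15 in dKO XY (log2 change -2.33, SE 0.36, edgeR quasi-likelihood adjusted p = 0.0176). Endothelial cells of the same libraries held Amh at 9.40 and 42.0 CPM and at 6.91 and 7.70 CPM. Inhbb in members was at 3.002 and 5.85 CPM against 4.47 and 7.37, and was not called.

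Among called genes with an average level of at least 5 in log2 CPM, the largest rise in members was that of Nts, the precursor of the peptide neurotensin (chromosome 10, 102481756 to 102490486). Its level was 21.3 and 20.9 CPM in control XY members and 95.4 and 178 CPM in dKO XY members. This was a log2 change of 2.67 (SE 0.256, edgeR quasi-likelihood adjusted p = 0.00497, Benjamini-Hochberg over all genes tested). Endothelial cells had 0.313 to 1.40 CPM of Nts, and Leydig cells had less in dKO XY (36.1 and 36.2 CPM) than in control XY (88.6 and 74.2 CPM), so the level in dKO XY members lay above that of both. Sct, the precursor of the peptide hormone secretin (chromosome 7, 141278330 to 141279133), rose from 63.7 and 55.6 CPM to 140 and 141 (log2 change 1.22, SE 0.094, edgeR quasi-likelihood adjusted p = 0.00384). Leydig cells had 1120 and 1188 CPM of Sct in control XY and 1588 and 1579 in dKO XY, and endothelial cells had 10.7 and 3.51 against 7.13 and 52.3. The part of free RNA in the rise of Sct was not tested.

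Other large rises were chosen in the same way. Cdc42ep3, an effector of the GTPase CDC42, rose from 30.1 and 29.4 CPM to 90.2 and 67.3. Grb14, an adaptor that dampens insulin receptor signals, rose from 24.1 and 22.1 CPM to 54.8 and 57.8. Col18a1, the basement membrane collagen from which endostatin is cut, rose from 22.7 and 30.5 CPM to 57.1 and 70.1. Their log2 changes were 1.403, 1.273 and 1.242. Serpinb6b, a serine protease inhibitor, rose by 1.97, from 16.3 and 21.7 CPM to 60.7 and 90.8. RP23-433F5.1 rose by 1.24, from 25.3 and 28.3 CPM to 51.0 and 77.4. Kctd14, a granulosa cell marker, rose from 20.1 and 43.5 CPM to 91.9 and 238 (log2 change 2.35, SE 0.48, edgeR quasi-likelihood adjusted p = 0.041). Endothelial cells of the same libraries had Kctd14 levels of 9.40 and 14.6 CPM (control XY) and 67.0 and 252 CPM (dKO XY). The call for Kctd14 was lost without control XY replicate 1, with DESeq2, with a first threshold of 15 UMIs, with thresholds per 20000 UMIs, with no filter on low counts and without the cells of highest doublet score.

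At the same minimum level, the largest fall was that of Elavl2, an RNA-binding protein, from 84.0 and 127 CPM in control XY members to 29.5 and 41.8 CPM in dKO XY members (log2 change -1.59, SE 0.22, edgeR quasi-likelihood adjusted p = 0.0128). Col23a1 and Col25a1 are collagens of the transmembrane type. Col23a1 fell from 68.4 and 70.0 CPM to 22.3 and 29.8, and Col25a1 from 149 and 149 CPM to 51.4 and 62.3 (log2 changes -1.44 and -1.41, SE 0.131 and 0.099, edgeR quasi-likelihood adjusted p = 0.00442 and 0.00384). Dlk1, an imprinted Notch-like membrane protein of precursor cells, was abundant and fell from 1478 and 1205 CPM to 614 and 514 (log2 change -1.26, SE 0.14, edgeR quasi-likelihood adjusted p = 0.00704). Igfbp6, which binds insulin-like growth factors, fell from 48.1 and 47.4 CPM to 22.6 and 18.3.

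Further falls of this size were of Gsta2, a glutathione transferase (54.9 and 43.1 CPM to 15.51 and 22.7), Lrfn5, a synaptic adhesion protein (89.8 and 94.8 CPM to 34.5 and 44.5), Ly6h (61.0 and 60.9 CPM to 31.5 and 21.8) and Adcy2, an adenylate cyclase (43.4 and 43.4 CPM to 19.2 and 20.2). For each of these large falls, the call was kept with any of the 4 libraries left out.

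**Figure D3:**
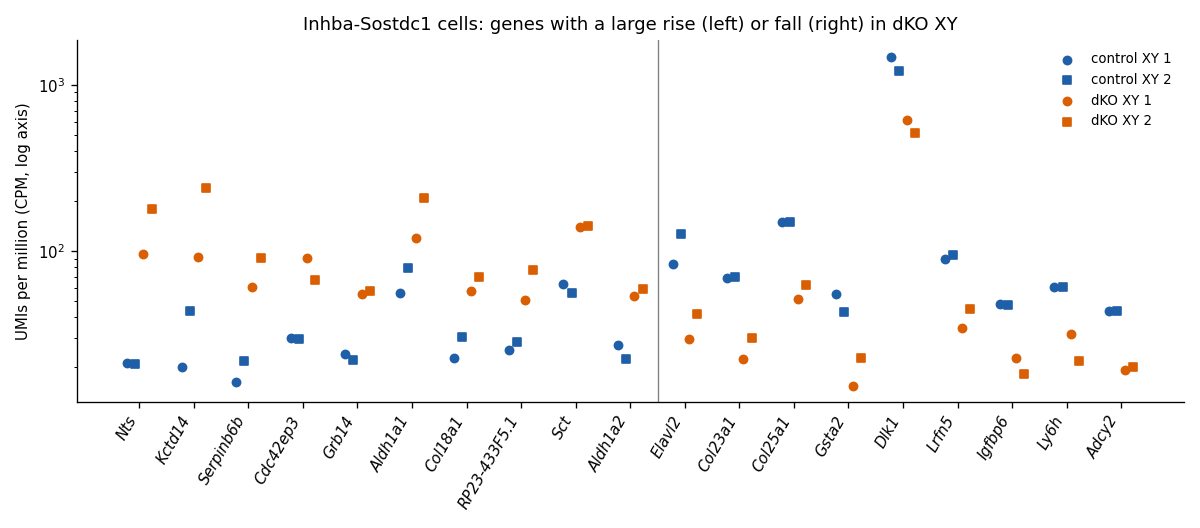
Points give the level in CPM, on a log axis, of 10 genes with a large rise and 9 with a large fall in members of dKO XY (orange) against control XY (blue), with 1 point per library. The 19 genes were chosen as large called changes in these same libraries, and Nts went from 21.3 and 20.9 CPM to 95.4 and 178.

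Cxcl12 had 1193 and 1029 CPM in control XY members against 571 and 677 in dKO XY members, and fell by 0.85 on the log2 scale (SE 0.115, edgeR quasi-likelihood adjusted p = 0.0125). Its call was kept with each library left out. Of 11 chemokines and cytokines tested, 1 rose and 1, Cxcl12, fell, where 2.96% of all genes rose and 1.88% fell. Kitl, the ligand of KIT on germ cells, rose from 26.4 and 27.6 CPM to 47.5 and 56.7 (log2 change 0.93), and 9 were not called. Among these, Ccl17 was at 1.89 and 4.15 CPM against 0.763 and 0.427, and Ackr3, a scavenger of CXCL12, at 25.5 and 22.3 against 34.7 and 14.9.

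Among 16 interstitial transcription factors tested, 4 fell and 1 rose, where 1.88% of all genes fell and 2.96% rose. The counts of the lists below stand against the same shares. The median log2 change of the list was -0.23, against -0.0037 over all genes. Osr1, a zinc finger factor of intermediate mesoderm and mesenchyme, fell from 45.6 and 39.9 CPM to 12.7 and 11.3 (log2 change -1.83, SE 0.134, edgeR quasi-likelihood adjusted p = 0.00384). Lhx9, a LIM homeobox factor needed for the early gonad, fell from 403 and 377 CPM to 258 and 257. Wt1, which Sertoli and coelomic epithelial cells also express, rose from 26.8 and 32.0 CPM to 52.4 and 46.0. The calls for Lhx9 and Wt1 were lost without control XY replicate 1. Nr2f2 was at 922 and 935 CPM against 631 and 822 and was not called.

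In the list of AMH, activin and TGF-beta ligands, receptors and SMADs, Amh aside, 1 of the other 22 genes tested was called. This share is close to the 4.84% over all genes. Amh is given above. Amhr2, the AMH receptor, rose from 7.56 and 9.81 CPM in control XY members to 24.2 and 28.8 in dKO XY members (log2 change 1.59, SE 0.155, edgeR quasi-likelihood adjusted p = 0.005). Endothelial cells of the same libraries had Amhr2 levels of 8.14 and 5.66 CPM (control XY) and 18.8 and 45.5 CPM (dKO XY). The part of free RNA in this rise was not tested. Tgfb2 was at 98.6 and 115 CPM against 92.3 and 89.1, and Smad4, the SMAD shared by all branches, at 88.6 and 92.7 against 80.8 and 93.7, and neither was called.

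Of 15 SMAD target and feedback genes, 2 rose and none fell, against 2.96% and 1.88% of all genes, with a list median of 0.20. Tgfbi, an extracellular matrix protein named for its induction by TGF-beta, rose from 6.34 and 5.31 CPM to 18.2 and 18.5 (log2 change 1.64). Fst, the activin antagonist follistatin, was at 0.651 and 1.44 CPM against 6.20 and 4.16 (log2 change 2.34), while endothelial cells had 0.626 and 8.78 against 2.55 and 18.7 CPM of it. Id1 had 522 and 370 CPM in control XY members against 1099 and 327 in dKO XY members, so that its groups overlapped. Ccn1, listed under its older symbol, was at 459 and 383 CPM against 704 and 225.

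Of 11 BMP ligands and antagonists, 3 ligands rose and 1 antagonist fell. Bmp2 rose from 7.31 and 7.18 CPM to 15.4 and 15.6 (log2 change 1.08, SE 0.122, edgeR quasi-likelihood adjusted p = 0.00719). Bmp4 was at 9.26 and 8.39 CPM against 17.2 and 15.6, and Bmp7 at 13.3 and 13.2 against 19.7 and 22.3. Chrd, the secreted antagonist chordin, fell from 7.52 and 7.29 CPM to 3.81 and 3.52. The calls for Bmp4, Bmp7 and Chrd were lost without either control XY library. Bambi, a decoy receptor, was at 78.5 and 79.8 CPM against 103 and 94.8, and the protease gene Bmp1 at 72.5 and 79.0 against 60.3 and 65.4, and neither was called. The list's median was 0.15.

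WNT genes went both ways, with 3 of 23 higher and 5 lower. Lef1, a nuclear mediator and target of WNT signals, rose from 11.1 and 8.49 CPM to 21.0 and 28.7 (log2 change 1.31, SE 0.188, edgeR quasi-likelihood adjusted p = 0.015). Axin2, a feedback target, rose from 19.4 and 18.7 CPM to 34.1 and 33.2, and the ligand Wnt11 from 2.75 and 2.73 CPM to 5.999 and 6.73. Rspo3, an enhancer of WNT signals, fell from 4.28 and 3.76 CPM to 1.22 and 2.14, a low level. The ligand Wnt5a fell from 339 and 353 CPM to 264 and 247, the receptor gene Fzd2 from 132 and 121 to 95.4 and 96.8 and the receptor gene Fzd8 from 19.1 and 18.9 to 11.7 and 10.9, all named after their values were seen, and Wnt4 is given with the granulosa markers. The calls for Axin2, Wnt11, Wnt5a, Fzd2, Fzd8 and Rspo3 were lost without either control XY library, and that for Rspo3 also without dKO XY replicate 1. Sfrp1, a WNT antagonist, was at 389 and 381 CPM against 359 and 264, and the R-spondin receptor gene Lgr4 at 111 and 116 against 117 and 92.9. The list's median was -0.11.

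Of 12 Hedgehog genes none rose and 1 fell, a call lost without either control XY library. With 4.84% of all genes called, this count and that of the Notch list are near the share over all genes. Among those not called, Ptch1, a receptor and target, was at 294 and 328 CPM against 263 and 272. Gas1, a Hedgehog co-receptor, was at 321 and 288 CPM against 263 and 84.9. Of 12 Notch genes none was called. Notch2 was at 122 and 105 CPM against 111 and 103, and Hes1 at 195 and 180 against 197 and 146. The medians of the lists were -0.18 and -0.12.

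Of the enzymes that make retinoic acid, Aldh1a1 and Aldh1a2 rose. Aldh1a1 went from 55.8 and 79.1 CPM in control XY members to 120 and 209 in dKO XY members (log2 change 1.26, SE 0.25, edgeR quasi-likelihood adjusted p = 0.0405), a call lost without control XY replicate 1, with DESeq2 and with no filter on low counts. Aldh1a2 rose from 27.4 and 22.3 CPM to 53.6 and 59.2 (log2 change 1.17, SE 0.129, edgeR quasi-likelihood adjusted p = 0.00689). Stra6, which takes up retinol, fell from 15.6 and 17.2 CPM to 9.30 and 8.65, a call lost without either control XY library. Aldh1a3 and Rdh10, which also act in this synthesis and were picked after their values were seen, were not called, at 1.47 and 1.35 CPM against 1.63 and 1.17 and at 20.6 and 22.3 against 16.5 and 16.01. Dhrs3, a retinal reductase, was at 50.3 and 46.6 CPM against 52.5 and 39.1. In all, 2 of 14 genes rose and 1 fell, with a median of -0.11.

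Of 27 matrix genes, 5 were lower and 2 higher, against 1.88% and 2.96% of all genes, with a median of -0.26. The list holds Col25a1, which marks the group, and whether falls outnumbered rises was not tested. Beside Col23a1 and Col25a1, Dcn, the proteoglycan decorin, fell from 1036 and 961 CPM to 624 and 494 (log2 change -0.84, SE 0.131, edgeR quasi-likelihood adjusted p = 0.0184). Col14a1, a fibril-associated collagen, rose from 24.8 and 24.9 CPM to 56.1 and 51.7 (log2 change 1.11). Col1a2 was at 1747 and 1794 CPM against 1439 and 1631, and Col3a1 at 1917 and 1903 against 1503 and 1711, and neither was called.

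Contractile genes had a median log2 change of 0.40, with 2 of 16 called and both higher. Tpm1, a tropomyosin, rose from 983 and 1002 CPM to 1556 and 1336, and Des, desmin, from 24.2 and 21.8 CPM to 34.1 and 34.1. Both calls were lost without either control XY library. Acta2 had 476 and 470 CPM in control XY against 1094 and 540 in dKO XY members, and Myl9 at 250 and 243 against 481 and 316. The higher value was in dKO XY replicate 1, the library with 14.8% of cells high in Acta2. Neither was called (edgeR quasi-likelihood adjusted p = 0.183 and 0.0900), while DESeq2 called Myl9 (adjusted p = 0.00506). Among thinned members not high in Acta2, Acta2 was at 285 and 302 CPM in control XY against 523 and 434 in dKO XY, and Myl9 at 212 and 203 against 355 and 290.3. Without the cells high in Acta2, an exclusion added after seeing the data, edgeR called both genes as higher, but the level of Acta2 itself chose the cells left out, so these calls are no independent test.

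Of 12 PDGF and VEGF genes tested, the semaphorin and VEGF receptor genes Nrp2 and Nrp1 were called. Nrp2 was at 6.03 and 6.04 CPM against 17.1 and 11.6, and Nrp1 at 67.5 and 72.5 against 33.0 and 49.4, calls lost without either control XY library. Pdgfra, a rule gene, was at 388 and 404 CPM against 220 and 251. Pdgfrb was at 95.9 and 105 CPM against 59.7 and 135, and Vegfb at 99.9 and 91.2 against 94.4 and 88.5.

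Of 13 nuclear receptors, 2 fell and none rose, with a median of -0.23. Esr1, an oestrogen receptor, fell from 17.3 and 16.9 CPM to 11.9 and 11.3, a call lost without either control XY library. Thra was at 274 and 259 CPM against 240 and 218, and Nr4a1, an immediate early gene, at 175 and 223 against 271 and 59.5.

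In the IGF system and among imprinted growth genes, 4 of 17 fell and 1 rose, with a median of 0.06. Igf1, a growth factor, fell from 181 and 169 CPM to 93.6 and 70.7 (log2 change -1.09, SE 0.141, edgeR quasi-likelihood adjusted p = 0.0108). Meg3, a noncoding RNA of the imprinted Dlk1 locus, fell from 2619 and 2841 CPM to 1708 and 1558 (log2 change -0.75). Mest was at 832 and 713 CPM against 736 and 902, and Peg3 at 981 and 1059 against 1228 and 1256, and neither imprinted gene was called.

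S phase and mitosis genes had 8 of 16 members higher in dKO XY, none lower and a median of 0.45, although Top2a and Mki67 limited the members and these genes move with them. Members within 1 UMI of that limit were 87 of 2511 and 116 of 2745 in control XY and 71 of 965 and 54 of 403 in dKO XY, a larger share in both dKO XY libraries, and its part in the rise was not tested. Ccnd1, cyclin D1, rose from 5.86 and 7.85 CPM to 30.6 and 35.1 (log2 change 2.25, SE 0.158, edgeR quasi-likelihood adjusted p = 0.00384). Endothelial cells had 257 and 315 CPM of Ccnd1 in control XY and 410 and 438 in dKO XY, and the part of free RNA was not tested. Ccnd2, cyclin D2, rose from 209 and 233 CPM to 327 and 373. Cenpf, a kinetochore gene, was at 13.4 and 18.97 CPM against 27.3 and 39.6, and Ccnb1, cyclin B1, at 3.72 and 4.41 against 6.97 and 8.65. The calls for Ccnd2, Cenpf and Ccnb1 were lost without control XY replicate 1, and that for Ccnb1 also without control XY replicate 2. Without control XY replicate 1, Ccnd1 was the only gene of the list still called. Mcm6 was at 111 and 109 CPM against 125 and 122, and Hmgb2 at 471 and 471 against 503 and 366, and neither was called.

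**Figure D4:**
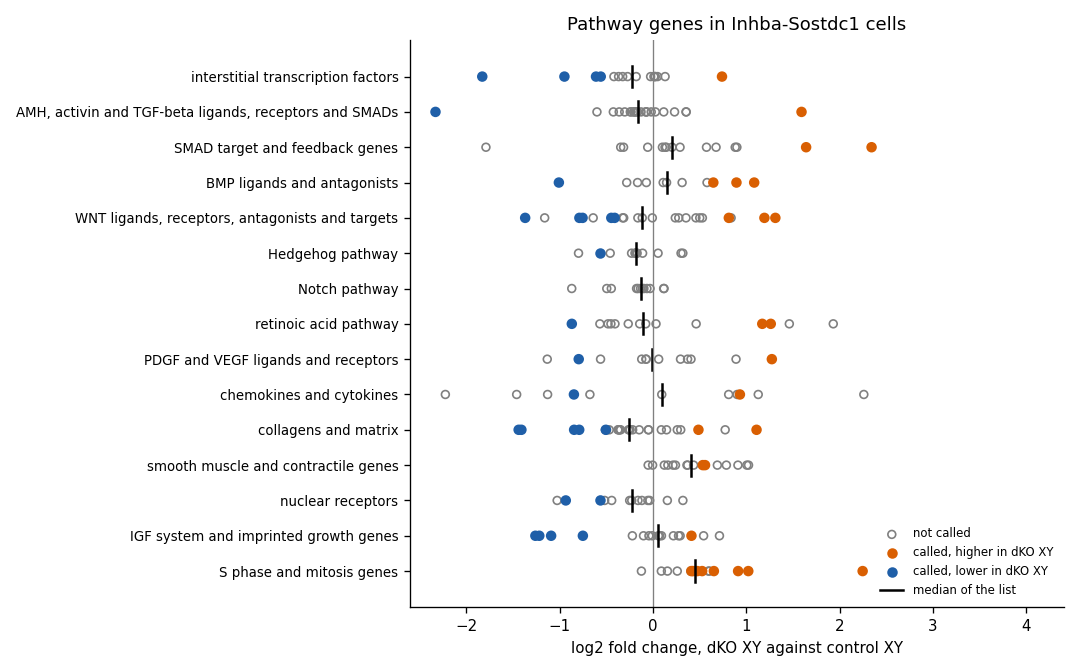
Each point is a gene of a pathway list and gives its log2 change in members, dKO XY against control XY, with filled points for called genes and a black line at the median of the list. Called WNT genes lie on both sides of 0 (3 higher, 5 lower), and the called S phase and mitosis genes (8 of 16) all lie above 0.

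Germ cell and granulosa markers moved with the genotype, most of them at low levels, with Kctd14 and Wnt4 as exceptions. All 7 germ cell markers were higher in dKO XY members, and their summed level was 7.64 and 5.72 CPM in control XY and 51.8 and 50.8 CPM in dKO XY. Endothelial cells of the same libraries, which should lack these genes, had 5.64 and 2.34 CPM against 44.5 and 41.7. Dazl, for example, was at 0.798 and 0.710 CPM against 13.3 and 14.4 in members, and at 0.940 and 0.195 against 7.76 and 9.80 in endothelial cells. Of 7 granulosa markers, Foxl2, Fst, Irx3, Kctd14 and Runx1 were higher and Wnt4 lower. Their summed level was 337 and 389 CPM in control XY and 325 and 448 in dKO XY members, with Wnt4 at 300 and 327 CPM against 200 and 165. Wnt4 made up most of the sum in both control XY libraries and dKO XY replicate 1, and Kctd14, at 238 CPM, in dKO XY replicate 2. The call for Wnt4 was lost without control XY replicate 2. Foxl2 was at 0.588 and 0.753 CPM against 3.56 and 5.44. Of 8 Sertoli markers, Cldn11 was higher (0.756 and 0.989 CPM against 2.75 and 2.67), and the summed level was 115 and 176 CPM against 255 and 184. None of 6 Leydig, 7 endothelial, 7 immune, 6 pericyte or 5 epithelial markers tested was called. Leydig markers outside the rule summed to 203 and 211 CPM in control XY and 216 and 249 in dKO XY members. Of 5 erythroid markers, Hemgn was called, at 0.147 and 0.151 CPM against 0.813 and 0.534, and the list summed to 187 CPM in dKO XY replicate 1 against 10.96 to 29.3 in the others. The calls for Mael, Runx1, Cldn11 and Hemgn were lost without control XY replicate 1, those for the germ cell genes Pou5f1 and Sycp3 without control XY replicate 2, those for Cldn11 and Hemgn also without control XY replicate 2, and that for Hemgn also without dKO XY replicate 1 and with DESeq2. None of the 14 stress genes was called. The part of these RNAs in the other results was not tested.

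To ask whether the dKO effect differed between members and another interstitial class, it was compared with that in stromal cells of the same libraries (484 and 451 control XY and 294 and 142 dKO XY cells), with the library as a block. Stromal cells on their own gave 565 calls among 12818 genes, or 4.41% (2.12% higher, 2.29% lower). For cycling cells this was 1.64% (0.933% higher, 0.711% lower), and for noncycling cells under the first threshold 4.73% (2.56% higher, 2.17% lower). Of 13706 genes tested outside the rule, the effect differed for 660, or 4.82%, with 367 (2.68%) more positive and 293 (2.14%) more negative in members than in stromal cells. The stromal class of control XY held more Inhba and Pdlim3 than that of dKO XY (above), and the part of this in the differences was not tested.

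The 9 genes named here are among those whose effect differed most, and 3 of them were called in members and not in stromal cells. Nts had 8.61 and 5.54 CPM in control XY and 7.52 and 8.70 CPM in dKO XY stromal cells, against its rise in members, and the difference of the effects was 2.39 on the log2 scale (SE 0.26, edgeR quasi-likelihood adjusted p = 0.000949). Osr1 had 60.6 and 49.1 CPM for control XY and 66.2 and 64.8 in dKO XY stromal cells, against 45.6 and 39.9 and 12.7 and 11.3 in members (difference -2.08, SE 0.107, edgeR quasi-likelihood adjusted p = 7.33e-05). Penk, the precursor of enkephalins, was at 29.5 and 24.3 CPM against 6.66 and 6.83 in members, and at 48.9 and 56.4 against 67.4 and 66.6 in stromal cells (difference -2.36, SE 0.192, edgeR quasi-likelihood adjusted p = 0.000303). These 3 genes changed in the same direction in the classes nearest to members. In cycling cells past the first threshold, the log2 change was 1.71 for Nts, -1.42 for Osr1 and -1.96 for Penk (edgeR quasi-likelihood adjusted p = 0.0439, 0.0298 and 0.0239). In noncycling cells under the first threshold it was 1.36, -1.37 and -2.43 (adjusted p = 0.0705, 0.0494 and 0.00602), so that Nts was not called there. Differences between these classes and members were not tested. Of the large rises and falls given above, Grb14, Sct, Aldh1a1, Aldh1a2, RP23-433F5.1 and Ly6h were likewise called in members and not in stromal cells. Their differences were 1.30, 1.57, 1.64, 1.22, 1.91 and -0.99 (edgeR quasi-likelihood adjusted p of at most 0.0129). In cycling cells, Grb14, Sct, Aldh1a2 and Ly6h were also called, and in noncycling cells under the first threshold Sct, Aldh1a1, RP23-433F5.1 and Ly6h. Kctd14, Serpinb6b, Cdc42ep3, Col18a1, Elavl2, Col23a1, Col25a1, Gsta2, Dlk1, Lrfn5, Igfbp6 and Adcy2 were called in members and stromal cells. Of these, Elavl2 and Col25a1 fell more in stromal cells, and Cdc42ep3 and Dlk1 changed less there, by the test of the difference. All of these changes had the direction seen in members.

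The other 6 of the 9 genes named for the difference were called in stromal cells, where the size of the change was larger than in members. Pdyn was at 89.2 and 96.8 CPM against 70.9 and 75.7 in members, where it was not called, and at 42.1 and 40.6 against 7.07 and 3.90 in stromal cells (difference 2.42). Synm, the intermediate filament gene of synemin, was at 42.4 and 45.0 CPM against 34.0 and 25.7 in members and at 29.6 and 34.9 against 5.87 and 4.20 in stromal cells (difference 2.10). Pcp4l1 had 31.5 and 28.8 CPM against 58.3 and 37.7 in members and 30.0 and 26.7 against 14.3 and 4.80 in stromal cells (difference 2.14). Myh11, smooth muscle myosin, had 29.4 and 35.5 CPM against 85.5 and 34.4 in members, with overlap, and 45.1 and 42.3 against 21.2 and 22.2 in stromal cells (difference 2.00). Ren1, renin, was at 45.2 and 53.6 CPM against 54.2 and 4.59 in members, with 1 low library, and at 126 and 55.8 against 510 and 953 in stromal cells (difference -3.70, a call lost without control XY replicate 2 and with DESeq2). Hpgd, which breaks down prostaglandins, was at 46.7 and 34.2 CPM against 23.4 and 25.5 in members and at 25.4 and 19.5 against 57.6 and 48.9 in stromal cells (difference -2.02).

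**Figure D5:**
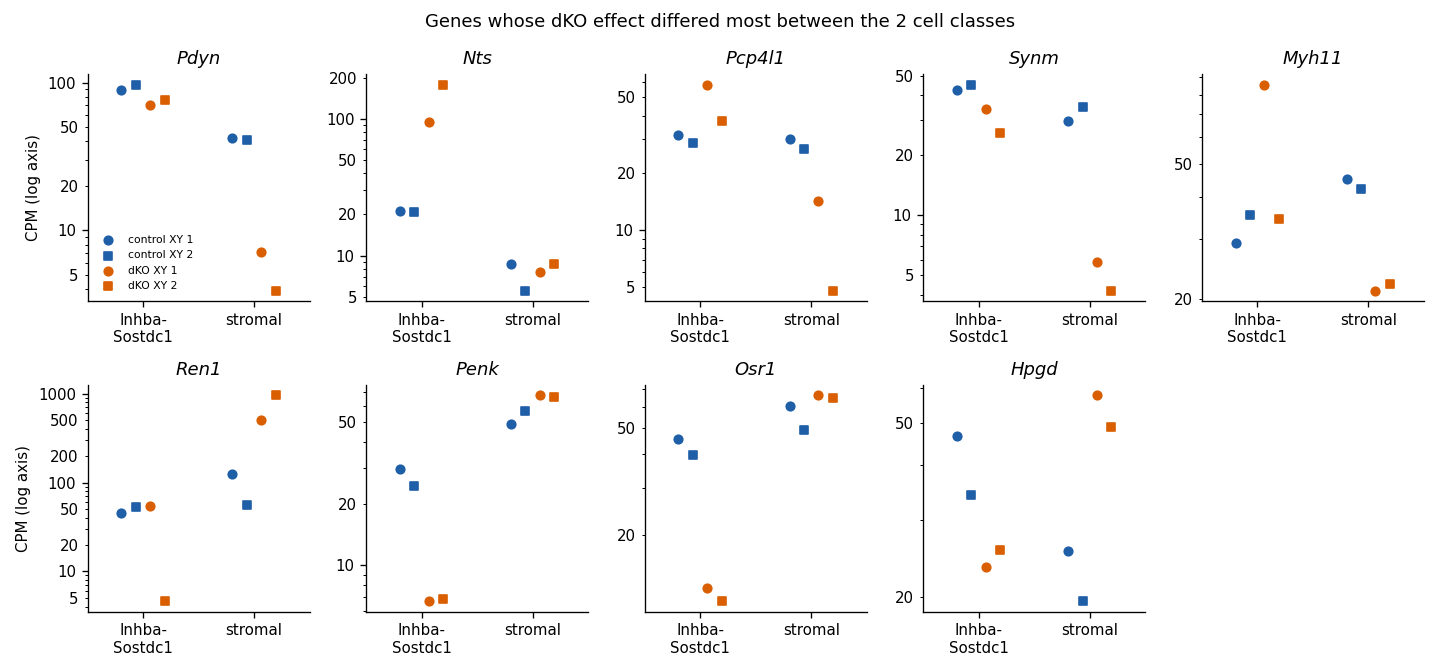
Points give the level in CPM, on log axes that differ between panels, of 9 genes among those whose dKO effect differed most between members and stromal cells, with blue for control XY and orange for dKO XY libraries. Osr1 and Penk were lower in dKO XY members but not in dKO XY stromal cells, and Nts was higher in dKO XY members but not in dKO XY stromal cells.

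In control XX gonads, 7 of 5330 and 10 of 4781 cells passed the same thresholds, or 0.131% (95% exact binomial interval 0.0528% to 0.270%) and 0.209% (0.100% to 0.384%). With fewer than 10 such cells in 1 library, no comparison of control XX with control XY was made. In these few cells Inhba was at 61.8 and 121 CPM, and Sostdc1 at 247 and 8.07 CPM.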

How the data were processed

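Single cells of E15.5 gonads were captured with 10x Genomics chemistry in 2 control XY, 2 dKO XY and 2 control XX libraries. The deposited files hold raw UMI counts per gene and barcode, which the authors made with Cell Ranger 3.0 on mm10, with correction for swapped barcodes. The submitters' processing notes also name Seurat 4.0. Groups were taken from the sample titles. Barcodes were kept as cells between 2500 and 9000 detected genes, below 25% mitochondrial and below 20% Hbb- UMIs, and the rule then chose the members from the counts. The members, the gene lists and the comparison classes were chosen with earlier results of these data known. Endothelial cells were those outside the interstitial and Leydig limits with at least 5 UMIs of Cdh5, Kdr and Tie1, a definition made after seeing the data.

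Doublets were not removed. Scrublet (in scanpy 1.11.5) marked 1 and 4 control XY and 250 and 144 dKO XY cells with its automatic limit, so an alternative removed the top 8% of each library by doublet score. Members among them were 2.63% and 2.81% in control XY and 3.83% and 2.98% in dKO XY.

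Counts were summed over the members of each library, filtered with filterByExpr, scaled by TMM and tested with edgeR 4.0.16 (R 4.3.3), with p-values adjusted by Benjamini-Hochberg over all genes fitted and a threshold of 0.05. The members held 47631117 and 46505371 UMIs in control XY and 19668894 and 9367178 in dKO XY. The 28 genes that the rule or the cell filter used entered the fit and are not counted as calls. Log2 changes are dKO XY against control XY. Their standard errors (SE) were derived as the size of the log2 change over the square root of the F statistic of the test. The genes named were the 10 largest rises and falls among calls whose average level was 5 or more in log2 CPM, up to 4 called and 2 uncalled genes of each list, and the 5 largest differences between classes each way. The scripts were tested on simulated data. Alternatives were DESeq2 1.42.0, RLE size factors, no filter on low counts, other first thresholds, thinning, a stricter mitochondrial limit, a replicate block and leaving out each library. Coordinates are from GENCODE M21 and promoters from RefSeq. Some genes that these rules picked are not reported here.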

Additional observations from a re-analysis of the deposited data

Results flagged for a closer look

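The effect of the double knockout differed between the Inhba-Sostdc1 cells and the Lum-Gdf10-Il33 stromal cells of the same libraries for 660 genes, by edgeR's quasi-likelihood test of the genotype by class term. Among genes of sufficient level, the effect was more positive in the Inhba-Sostdc1 cells by 2.42 for Pdyn, 2.39 for Nts, 2.14 for Pcp4l1, 2.10 for Synm and 2.00 for Myh11, on the log2 scale. It was more negative, with differences of -3.70 for Ren1, -2.36 for Penk, -2.08 for Osr1 and -2.02 for Hpgd. The difference for Ren1 was not called by DESeq2, nor without control XY replicate 2. The level of the rule gene Pdlim3 in the stromal cells was itself 509 and 520 CPM in control XY against 124 and 142 in dKO XY.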

How the results depend on the processing

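The number of genes called in the Inhba-Sostdc1 cells, 722 of 14921, depended on the cells and libraries used. It was 470 with cells thinned to 10000 UMIs, 443 with a first threshold of 15 UMIs, 152 with no filter on low counts and 1635 with no first threshold, the last added after seeing the data. Leaving out 1 library gave 198 to 1994 calls, with the remaining library of that genotype assumed to vary like the other group. DESeq2 called 920 genes. For the difference between classes, with 660 calls, DESeq2 gave 359 with 1332 adjusted p-values not given, no filter gave 1255, and leaving out 1 library gave 407 to 1194. The mean share of members in control XY, 34.4%, was 27.3% and 39.6% with first thresholds of 15 and 6 UMIs and 38.1% with thresholds per 20000 UMIs. The share in dKO XY, 9.45%, was 6.07% and 14.3% with first thresholds of 15 and 6 UMIs.

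With the replicate number as a block, 854 genes were called. The labels do not say whether same-numbered libraries shared a batch. The correlation of their deviations from the group means was 0.069, which with 2 libraries per group cannot decide this. Of 1523 alternative values for the 95 named effects, 1368 stayed called or stayed not called, 115 lost the call and 35 gained it. Values of effects not called in the main test are among the 1523 and could not lose a call. The other 5 turned direction where either setting gave a call. Turns of direction in effects called in neither setting are among the 1368 and were not counted apart. Without dKO XY replicates 1 and 2 in turn, the log2 change was -0.48 and 1.30 for Id1, -0.94 and 0.75 for Cyr61 (Ccn1), 0.40 and -0.74 for Pdgfrb, -0.71 and 0.54 for Ackr3, and -1.77 and 0.46 for Nr4a1, none of them called with all 4 libraries. The cause was not tested. The comparison with control XX and its alternatives were not run, since 7 and 10 control XX cells passed the thresholds. With 9367178 UMIs, the members of dKO XY replicate 2 had the fewest counts.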
